A study of Mus musculus with 12 samples.

Results

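Eosinophil genes were read in bulk RNA-seq of mouse hematopoietic stem and progenitor cells (HSPCs). They were chosen by symbol and are 8 of the 24016 genes kept from the authors' deposited tables: the granule genes Prg2, Prg3, Epx, Ear1 and Ear2, the receptors Il5ra and Ccr3, and the lipoxygenase Alox15. Each symbol had 1 transcript in the tables. The study compared 3 genotype groups, named Smc3, Npm1 and Double, with WT, in 3 libraries each. Smc3 encodes part of the cohesin ring, which keeps sister chromatids joined, and Npm1 a nucleolar chaperone often mutated in acute myeloid leukaemia. The labels name no allele, Cre driver or sex, and leave it unsaid if each library is a mouse of its own, so each p-value measures the spread between these libraries, which may be technical. All mice, WT included, were of strain C57BL/6 and were given 7 doses of pIpC (1 mg/mL), a double-stranded RNA mimic, on alternate days from an age of 4 to 6 weeks. Cells were taken 4 to 6 weeks afterwards, with red cells lysed and cells of mature lineages depleted.

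Eosinophils are granulocytes whose progenitors carry the receptor for interleukin 5, and they fill their granules with basic proteins while still in the marrow. Prg2 encodes the major basic protein, Prg3 its homolog, Epx the eosinophil peroxidase, and the Ear genes a rodent family of eosinophil-associated ribonucleases. Ccr3 is the receptor for eotaxins and is also carried by basophils, and Alox15 adds oxygen to arachidonic and linoleic acid in eosinophils and some other myeloid cells.

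The genes followed a pair of patterns. Prg2, Prg3, Epx, Ear1, Ear2 and Il5ra rose in Double HSPCs relative to WT HSPCs, by 3.73 to 14.3 times in group means, and none of them was called in Npm1 HSPCs. Prg3, Epx and Il5ra rose in Smc3 HSPCs as well, by 3.27 to 5.49 times, and Prg2, Ear1 and Ear2 had group means of 5.16 to 11.4 times WT there but no p-value in the authors' deposited table. Alox15 was higher in Smc3 HSPCs and lower in Npm1 HSPCs than in WT, and in Double HSPCs it was near WT. Ccr3 passed no test against WT.

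The promoters of 4 genes that rose in Double HSPCs are shown: those of Prg3 and Il5ra because both hold a GATAA match, and those of Ear1 and Ear2 because they are near copies of each other. Of the 8 genes, 6 had a promoter in the RefSeq table, all but Prg2 and Alox15. The sequences are the 250 bases before the start site, 5′ to 3′, from RefSeq on build GRCm38.p6. Capitals mark matches, on either strand, to 3 motifs that were searched: GATAA (the GATA family motif), TTGCNNAA (a C/EBP family motif) and GAGGAA (an ETS family motif bound by Spi1). Prg3 lies at chr2:84987965-84988214 (plus strand), Il5ra at chr6:106749038-106749287 (minus strand), Ear1 at chr14:43819640-43819889 (minus strand) and Ear2 at chr14:44102404-44102653 (plus strand).
Prg3: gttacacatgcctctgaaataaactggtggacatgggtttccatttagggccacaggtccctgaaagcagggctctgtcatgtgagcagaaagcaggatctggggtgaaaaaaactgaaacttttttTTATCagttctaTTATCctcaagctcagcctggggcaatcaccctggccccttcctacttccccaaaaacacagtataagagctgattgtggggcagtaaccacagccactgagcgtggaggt
Il5ra: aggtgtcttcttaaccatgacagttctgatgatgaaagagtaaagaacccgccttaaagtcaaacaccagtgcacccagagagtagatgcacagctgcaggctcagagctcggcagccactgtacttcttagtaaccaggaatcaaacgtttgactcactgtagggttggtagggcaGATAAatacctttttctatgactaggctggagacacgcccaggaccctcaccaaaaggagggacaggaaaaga
Ear1: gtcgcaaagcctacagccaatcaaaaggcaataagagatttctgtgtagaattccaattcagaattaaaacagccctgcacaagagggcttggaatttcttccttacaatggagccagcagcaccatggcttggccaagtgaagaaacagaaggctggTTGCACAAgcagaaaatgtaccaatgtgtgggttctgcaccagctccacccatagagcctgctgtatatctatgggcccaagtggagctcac
Ear2: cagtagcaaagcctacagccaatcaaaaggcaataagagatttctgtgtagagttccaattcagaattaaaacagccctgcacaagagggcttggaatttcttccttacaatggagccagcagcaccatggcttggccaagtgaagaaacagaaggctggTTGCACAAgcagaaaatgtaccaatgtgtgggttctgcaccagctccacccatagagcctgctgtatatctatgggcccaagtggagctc

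The Ear1 and Ear2 promoters are alike in 246 of 248 aligned bases. Their transcripts are identical at 96.8% of 713 aligned bases, so the split of reads between these genes depends on the authors' read counting, which is not given in the sources used here, and each level is uncertain to that extent. The Prg3 promoter held 2 matches to GATAA, the Il5ra promoter 1 and the Ccr3 promoter 1, while the Ear1 and Ear2 promoters held 1 match each to TTGCNNAA. The Ccr3 promoter also held 1 match to GAGGAA, and the Epx promoter held no match to any of the 3. Among 32851 promoter windows of the same length in the table, 22.6% held GATAA, 9.56% held TTGCNNAA and 23.3% held GAGGAA. These matches describe letters only.

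The authors' deposited tables hold 1 mean per comparison and no value per library. Whole reads per library were nevertheless recovered from those means, a step added after the data were seen: each mean is a sum of whole reads weighted by library size factors, and the reads that also returned the deposited fold change and standard error were accepted. They were resolved for 6 of the 8 genes, and Prg2 and Epx held too many reads. The share of all genes whose libraries lie apart between groups was not counted. Statements below that libraries do or do not overlap are therefore descriptive only. The libraries carry no replicate number in the tables and are therefore called A, B and C within each group, from the deepest to the shallowest. Depth was about 51.6, 25.7 and 19.8 M reads in Smc3, 33.1, 21.5 and 10.6 M reads in Npm1, 35.4, 32.0 and 27.8 M reads in Double and 20.8, 14.3 and 10.3 M reads in WT, where M stands for the prefix mega. Levels below are reads divided by size factor on 1 scale for all 12 libraries ("normalized reads").

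All 6 listed stem and progenitor markers (Kit, Cd34, Ly6a, Slamf1, Mecom and Hlf) were detected, which does not show how pure the labelled cells were. The tables differ in scale, and their means were multiplied by 1.03 (Smc3), 1.30 (Npm1) and 1 (Double) to meet that of the library levels. On that scale the means of these 6 markers summed to 13609.5, 11199 and 12563 normalized counts in the Smc3, Npm1 and Double tables, and the means of the 8 eosinophil genes summed to 13969, 5056 and 16737. Y-linked Kdm5d and Uty had reads in Smc3 libraries A and B and Double libraries B and C. Both were at 0 in Smc3 library C, Double library A, Npm1 libraries A and B and all WT libraries, and Npm1 library C held 2 reads in all. The labels give no sex, and values split by these reads stand beside the results below. Of the other marker lists, 4 of 5 primary granule neutrophil genes were higher in Smc3, 1 of 5 lower in Npm1 and 5 of 5 higher in Double in the authors' deposited tables. Late granule neutrophil genes had 0 called of 2, 1 and 0 with an adjusted p in Smc3, Npm1 and Double, but all 9 lay below 0 in each of the authors' deposited tables. Their group means, worked back from the deposited fits, were 0.269 to 0.522 times WT in Smc3, 0.247 to 0.377 times in Npm1 and 0.178 to 0.379 times in Double, most with no adjusted p. Macrophage markers had 0 called of 6, 0 of 5 and 2 lower of 5 in Smc3, Npm1 and Double, and B cell markers 0 of 5, 0 of 5 and 1 lower of 5. Beside these marker counts, 7.94% of all genes tested were higher and 6.6% lower in Smc3. In Npm1 9.1% were higher and 9% lower, and in Double 8.87% were higher and 9.82% lower. Neither targeted gene told the groups apart: the group means of Smc3 in Smc3 and Double HSPCs were 0.986 and 0.982 times the WT mean, and those of Npm1 in Npm1 and Double HSPCs were 1.20 and 0.954 times. The tables cannot show a change within part of a transcript.

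Per kilobase of transcript, the highest mean belonged to Prg2 and the lowest to Ccr3. Brought to the common scale, the Prg2 means of the Smc3, Npm1 and Double tables were 10692, 3812 and 12662 normalized counts per kilobase, and those of Ccr3 were 6.71, 2.85 and 3.40. Epx came second to Prg2 with 1240.4, 513 and 1649.8 per kilobase, and Il5ra stood next above Ccr3 with 16.7, 7.68 and 18.5. These levels are means over the 6 libraries of each table, WT included, so they carry no spread.

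Granule proteins were described first. Prg2 averaged 15011 normalized reads in Smc3 HSPCs, 3479.6 in Npm1 HSPCs and 18314 in Double HSPCs, against 2908 to 2909 in WT HSPCs, as group means worked back from the 3 deposited fits. Prg2 transcripts were therefore 5.16 times the WT level in Smc3, 1.20 times in Npm1 and 6.30 times in Double. In the authors' deposited table for Double the moderated log2 fold change of Prg2 was 1.18 ± 0.26 (standard error, DESeq2 Wald test, adjusted p = 0.000172). For Smc3 the authors' deposited table had 0.92 ± 0.24 with no p-value, and for Npm1 0.05 ± 0.19 (adjusted p = 0.875).

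Epx, the peroxidase, averaged 5609.9 normalized reads in Smc3, 1697 in Npm1 and 7812 in Double HSPCs, against 1060.5 to 1061 in WT HSPCs. It was 5.29, 1.60 and 7.37 times the WT level. Epx rose in the authors' deposited tables in Smc3 by 0.86 ± 0.24 (DESeq2 adjusted p = 0.00609) and in Double by 1.10 ± 0.26 (adjusted p = 0.000415), and its Npm1 value was 0.14 ± 0.19 (adjusted p = 0.646).

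Prg3, the major basic protein homolog, had 260.2, 344 and 1149.9 normalized reads in Smc3 libraries A, B and C. It had 97.5, 33.4 and 378 in Npm1 libraries and 1064, 286 and 1187 in Double libraries, against 84.2, 98.9 and 137 in WT libraries. All Smc3 and Double libraries lay above all WT libraries, and library C of Npm1 stood above WT while A and B did not. The means ± SD were 585 ± 491 in Smc3, 169.7 ± 183 in Npm1 and 846 ± 489 in Double, against 107 ± 27.0 in WT (n = 3 each). Its log2 fold change in the authors' deposited tables was 0.77 ± 0.23 in Smc3 (DESeq2 adjusted p = 0.0129), 0.14 ± 0.19 in Npm1 (adjusted p = 0.649) and 1.16 ± 0.26 in Double (adjusted p = 0.000189). The Smc3 call rested on single libraries: without Smc3 library C, WT library A or WT library B, refits gave log2 fold changes of 0.44, 0.57 and 0.59, with p of 0.0473, 0.0106 and 0.00829, past the largest p called in that table (0.00733). Without Smc3 library C its log2 ratio of means was 1.5, against 2.46 with all libraries.

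Ear1, an eosinophil-associated ribonuclease, had 263, 256 and 1550.0 normalized reads in Smc3 libraries A, B and C. The Npm1 libraries had 25.1, 28.2 and 263 and the Double libraries 1039.7, 291 and 1267, against 39.0, 38.9 and 104 in WT libraries. Every Smc3 and Double library again lay above every WT library, by 11.4 times in the Smc3 mean and 14.3 times in the Double mean. The authors' deposited table for Double gave a log2 fold change of 1.08 ± 0.25 (DESeq2 adjusted p = 0.000296). For Smc3 and Npm1 the authors' deposited tables gave 0.60 ± 0.20 and 0.12 ± 0.17 with no p-value.

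Ear2, its close paralog, followed the same libraries. It had 321, 388 and 1567 normalized reads in Smc3 libraries, 35.9, 10.4 and 283 in Npm1 libraries and 1087, 309 and 1253 in Double libraries, against 59.6, 41.9 and 145 in WT libraries. Smc3 and Double libraries did not overlap WT libraries, and Npm1 libraries did. Ear2 rose in the authors' deposited tables in Double by 0.97 ± 0.25 (DESeq2 adjusted p = 0.00142), while Smc3 stood at 0.66 ± 0.21 with no p-value and Npm1 at 0.05 ± 0.16 (adjusted p = 0.852). Refitted from reads, Ear1 and Ear2 in Smc3 had p of 0.00316 and 0.00193, under the largest p called in that table, but not without Smc3 library C or any 1 of the WT libraries. The refits set no filter for a single high library, and why the authors' values lack a p is not given. These refits are therefore not calls by the authors. Without Smc3 library C the Smc3 mean of Ear1 was 2.10 above WT on the log2 scale and that of Ear2 2.11, against 3.51 and 3.21 with all libraries. WT library C was the highest WT library for both. Without it the log2 ratios of Ear1 were 4.14 in Smc3 and 4.47 in Double (3.84 with all libraries), and those of Ear2 were 3.90 in Smc3 and 4.12 in Double (3.43 with all libraries).

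Il5ra, the alpha chain of the interleukin 5 receptor, had 80.0, 71.9 and 122 normalized reads in Smc3 libraries and 27.8, 8.35 and 44.6 in Npm1 libraries. It had 137, 52.2 and 123 in Double libraries, against 22.6, 24.0 and 37.3 in WT libraries. Smc3 and Double libraries lay above all WT libraries, and Npm1 libraries lay on both sides of them. Il5ra rose in the authors' deposited tables by 1.11 ± 0.23 in Smc3 (DESeq2 adjusted p = 0.000189) and by 1.13 ± 0.26 in Double (adjusted p = 0.00028), and the Npm1 value was -0.03 ± 0.23 (adjusted p = 0.944). The Smc3 and Double calls passed in every refit that left out 1 library.

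**Figure D1:**
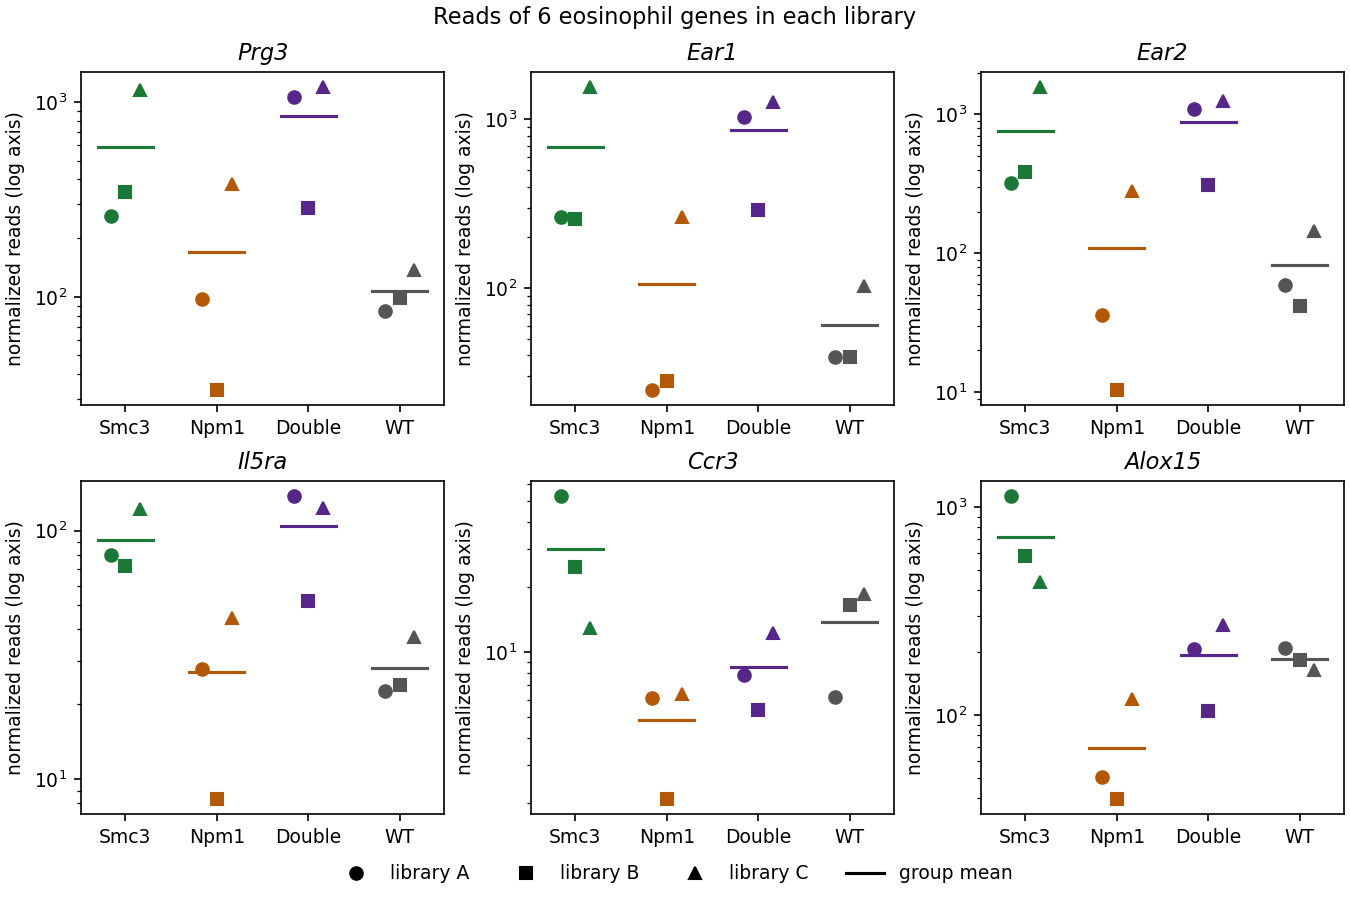
Normalized reads of Prg3, Ear1, Ear2, Il5ra, Ccr3 and Alox15 (log axis) in the Smc3, Npm1, Double and WT libraries, with 1 point per library, marked by shape as A, B or C, and a line at the group mean (n = 3 each). Prg3, Ear1, Ear2 and Il5ra sit above every WT library in all Smc3 and Double libraries, while Alox15 does so in Smc3 alone.

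Alox15 gave a second pattern. It had 1127, 581 and 435 normalized reads in Smc3 libraries A, B and C, 50.1, 39.7 and 119 in Npm1 libraries and 207, 105 and 272 in Double libraries, against 211, 184 and 166 in WT libraries. All Smc3 libraries lay above WT and all Npm1 libraries below it, while Double libraries lay on both sides. The log2 fold change in the authors' deposited tables was 1.38 ± 0.22 in Smc3 (DESeq2 adjusted p = 2.21e-07), -0.90 ± 0.23 in Npm1 (adjusted p = 0.0024) and 0.04 ± 0.23 in Double (adjusted p = 0.939). The Smc3 value was the highest moderated value of the 19466 kept genes with a fold change in the authors' deposited table.

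Ccr3, the eotaxin receptor, had few reads: 128, 30 and 12 in Smc3 libraries, 9, 2 and 3 in Npm1 libraries and 13, 8 and 16 in Double libraries, against 6, 11 and 9 in WT libraries. As normalized reads these were 52.8, 24.8 and 12.9 in Smc3, 6.10, 2.09 and 6.37 in Npm1 and 7.86, 5.35 and 12.3 in Double, against 6.16, 16.5 and 18.6 in WT. Each group overlapped WT. Ccr3 had a log2 fold change in the authors' deposited tables of 0.42 ± 0.24 in Smc3 (DESeq2 adjusted p = 0.216) and -0.23 ± 0.25 in Double (adjusted p = 0.586), and of -0.34 ± 0.20 in Npm1 (p = 0.0952, with no adjusted p).

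In all, 4 of the 5 eosinophil genes with an adjusted p were higher in Smc3 than in WT, against 7.94% higher and 6.6% lower of the 12750 genes tested. In Double 6 of 8 were higher, against 8.87% higher and 9.82% lower of 13217 genes, and in Npm1 1 of 6 was lower, against 9% lower and 9.1% higher of 12324 genes. The median moderated log2 fold change of the 8 genes was 0.82 in Smc3, 0.05 in Npm1 and 1.09 in Double, while over all kept genes with a fold change it was 0.01, -0.01 and 0.02. These counts are from the authors' deposited tables. Ear1 and Ear2 are counted as separate genes in them, though they may share reads. In these bulk samples, a larger number of eosinophil-lineage cells and more RNA per cell cannot be told apart.

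**Figure D2:**
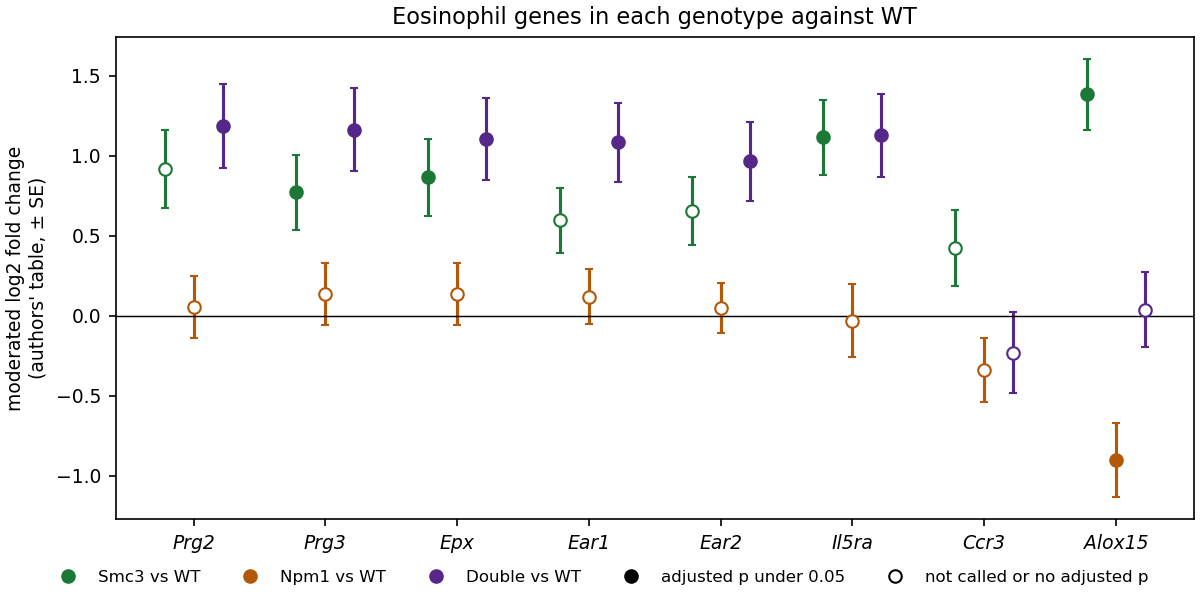
Moderated log2 fold change against WT with its standard error in the authors' deposited tables, for the 8 eosinophil genes (x axis) in Smc3, Npm1 and Double. Filled points have an adjusted p under 0.05: 4 genes in Smc3, 1 in Npm1 and 6 in Double.

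The deposited fold changes are drawn towards 0, and the ratios of group means were larger. For Ear1 the ratio of the Smc3 to the WT mean was 3.51 on the log2 scale, where the authors' deposited table has 0.60, and for Double it was 3.84, where the table has 1.08. For Prg3 the ratios were 2.46 in Smc3 and 2.99 in Double, and for Prg2 they were 2.37 and 2.65. Alox15 in Smc3 was nearest its ratio among genes called higher there, with 1.38 in the authors' deposited table and a ratio of 1.94. The order of the genes therefore differs: Ear1 had the largest ratio in Smc3, and Alox15 the largest moderated value. That order of ratios rested on Smc3 library C. Without it the log2 ratio in Smc3 was 2.10 for Ear1 and 2.19 for Alox15.

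**Figure D3:**
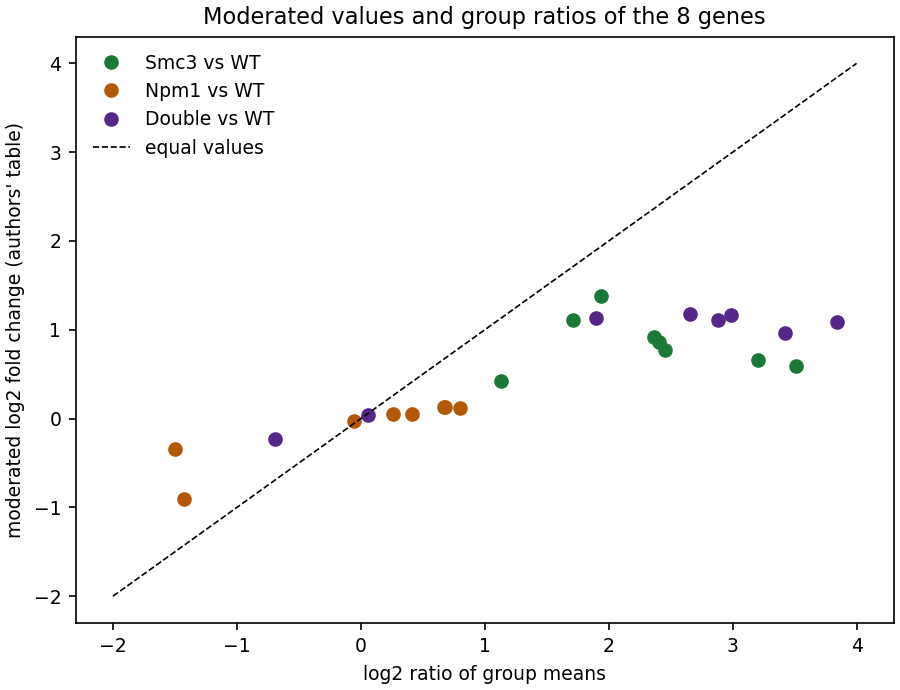
Moderated log2 fold change in the authors' deposited tables (y axis) against the log2 ratio of group means (x axis) for the 8 genes in each genotype against WT; the dashed line marks equal values. Ear1 in Smc3 lies at a ratio of 3.51 and a moderated value of 0.60, and Il5ra in Double at a ratio of 1.90 and a moderated value of 1.13.

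Library C was the highest Npm1 library for Prg3, Ear1 and Ear2, the granule genes with a value per library. Without it the log2 ratio to WT of Ear1 was -1.18, against 0.80 with all libraries, that of Ear2 was -1.83, against 0.42, and that of Prg3 was -0.70, against 0.67. Library C was the highest Npm1 library for Il5ra and Alox15 as well, and without it the log2 ratio of Alox15 to WT was -2.06, against -1.42. Within Double, library B was the lowest for all 6 genes with reads, with 291 normalized reads of Ear1, where A and C had 1039.7 and 1267.

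High libraries were found both with and without Y-linked reads. Among libraries without Y-linked reads, Ear1 had 1550.0 normalized reads in Smc3 library C and 1039.7 in Double library A, against a mean of 60.5 in the 3 WT libraries. Among libraries with Y-linked reads, the mean was 259 in Smc3 (n = 2) and 779 in Double (n = 2). Prg3, Ear2 and Il5ra were likewise above the WT mean in both kinds of library. Alox15 was 435 in the Smc3 library without Y-linked reads and 854 on average in the 2 with them, both above the WT mean of 187. Ccr3 was 12.9 in the Smc3 library without Y-linked reads, against 38.8 on average in the other 2 and a WT mean of 13.8. No WT library had Y-linked reads, so sex and genotype cannot be told apart in the libraries that had them.

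T cell markers were high in several of the libraries that were high in Prg3, Ear1 and Ear2. The 4 markers (Cd3e, Cd3g, Cd3d and Cd8a) summed to 68.9, 57.0 and 193 normalized reads in Smc3 libraries A, B and C, 62.3, 28.2 and 147 in Npm1 libraries and 149.9, 24.8 and 201 in Double libraries, against 103, 102 and 89.0 in WT libraries. Smc3 library C, Npm1 library C and Double libraries A and C were high in both. The WT libraries had T cell sums above those of Smc3 libraries A and B, and lower Ear2. Double library B had the lowest T cell sum of the 12 libraries. It held 309 normalized reads of Ear2, against 59.6, 41.9 and 145 in WT libraries. None of the 4 was at 0 in any library, and none passed the test in any genotype against WT. Their part in the result was not tested.

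Several mast cell and basophil markers moved with Alox15. Cd200r3, a receptor of basophils and mast cells, had 1044, 417 and 352 normalized reads in Smc3 libraries A, B and C, 60.3, 60.6 and 95.6 in Npm1 libraries and 223, 104 and 197 in Double libraries, against 143, 147 and 143 in WT libraries. Its order of groups was that of Alox15, and Smc3 library A was the highest for both. Of the 12 listed markers, 7 of 8 with an adjusted p were higher in Smc3, 6 of 7 lower in Npm1 and 2 of 8 higher in Double in the authors' deposited tables. The shares over all genes tested were 7.94% higher in Smc3, 9% lower in Npm1 and 8.87% higher in Double. The 5 markers with reads resolved summed to 1089, 457 and 383 normalized reads in Smc3 libraries, 68.4, 77.3 and 117 in Npm1 libraries and 253, 139.9 and 214 in Double libraries, against 166, 174 and 155 in WT libraries, mostly Cd200r3. Not every listed marker moved: Cma1 averaged 4.90 normalized reads in Smc3, against 6.43 in WT. Mcpt4 averaged 0.551 in Smc3 against 0.999 in WT, and Tpsb2 1.38 against 0.842. Tpsab1 was at 0 in all tables. The part of mast cells and basophils in the Alox15 result was not tested. Macrophage markers were also high in Smc3 library A, the highest library for Alox15 and Ccr3. The 6 with reads resolved summed to 282, 47.1 and 45.1 normalized reads in Smc3 libraries A, B and C, 21.7, 18.8 and 95.6 in Npm1 libraries and 35.1, 35.5 and 66.9 in Double libraries, against 87.3, 68.9 and 273 in WT libraries. WT library C, with a macrophage sum of 273, had 166 normalized reads of Alox15. Without Smc3 library A the log2 ratio of Alox15 to WT was 1.44, against 1.94 with all libraries. The part of macrophages in the Alox15 result was not tested.

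**Figure D4:**
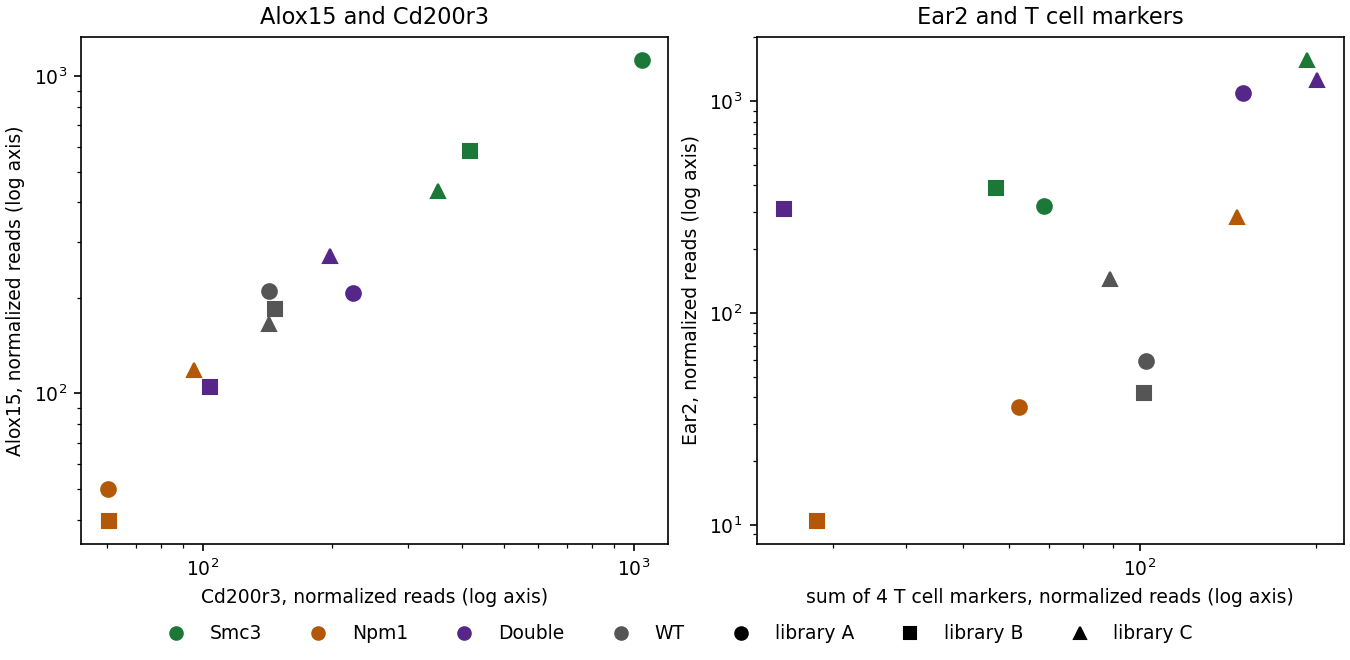
Left, normalized reads of Alox15 (y axis) against Cd200r3 (x axis); right, normalized reads of Ear2 (y axis) against the sum of 4 T cell markers (x axis), both on log axes, with 1 point per library, coloured by group and shaped by library. Smc3 library A is highest for Alox15 and Cd200r3 (1127 and 1044), and Smc3 library C is highest for Ear2 (1567) with a T cell sum of 193.

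The genotypes were then compared with each other by a z test on the differences of the moderated fold changes, which share the WT libraries. The summed variance counts the WT spread in both terms and is therefore too large. The values were also moderated to unequal degrees, so their differences can be larger or smaller than those of group means. For Double minus Smc3, Ear1 had 0.49 in moderated values and 0.33 as a log2 ratio of group means. Prg3 had 0.39 and 0.53. Double exceeded Npm1 in 6 of the 8 genes, against 4.09% of 18379 genes called higher and 2.89% called lower. The differences were 1.16 ± 0.35 for Il5ra (adjusted p = 0.0193), 1.13 ± 0.33 for Prg2 (adjusted p = 0.0147), 1.03 ± 0.32 for Prg3 (adjusted p = 0.0283), and 0.92 to 0.97 for Epx, Ear1 and Ear2 (adjusted p = 0.0415, 0.0271 and 0.0314). The Ear1 call used an Npm1 value to which the authors gave no p-value. In library values, Double lay above Npm1 without overlap for Ear1, Ear2 and Il5ra, and overlapped it for Prg3. How many of all genes lie apart in this way was not counted. Alox15 missed the threshold, with a difference of 0.94 ± 0.33 (adjusted p = 0.057), and Ccr3 stood at 0.11 ± 0.32. At a threshold of 0.01, chosen after seeing the data, 0 of the 8 genes were called.

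Smc3 exceeded Npm1 in 3 of the 8 genes, against 7.56% of 18316 genes called higher and 6.36% called lower. Alox15 differed by 2.29 ± 0.32 (adjusted p = 1.3e-09), Il5ra by 1.14 ± 0.33 (adjusted p = 0.0081) and Prg2 by 0.86 ± 0.31 (adjusted p = 0.0415). The Prg2 call used a Smc3 value to which the authors gave no p-value. It drops out where a p in each table is required. The Alox15 difference was the highest of the 18316 genes. Its 1127, 581 and 435 normalized reads in Smc3 libraries all lay above the 50.1, 39.7 and 119 of Npm1 libraries.

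Double and Smc3 differed in 1 gene. Alox15 was lower in Double by -1.35 ± 0.32 on the log2 scale (z test, adjusted p = 0.0165), against 0.181% of 18779 genes called lower and 0.0905% called higher, and it was not called at a threshold of 0.01. Its 207, 105 and 272 normalized reads in Double libraries all lay below the 1127, 581 and 435 of Smc3 libraries. Ccr3 also lay lower without overlap, with 7.86, 5.35 and 12.3 in Double and 52.8, 24.8 and 12.9 in Smc3, but its difference of -0.65 ± 0.35 was not called. For the other 6 genes the difference was between 0.01 (Il5ra) and 0.49 (Ear1), and its 95% interval ran from -0.14 to 1.12 for Ear1 and from -0.67 to 0.70 for Il5ra. A difference in either direction within these limits is not shown to be absent.

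Double was also set against the sum of Smc3 and Npm1. The z test called 0 of the 8 genes and 0% of 18199 genes, and at an unadjusted p under 0.05 it gave 0 of the 8 and 265 genes in all. Alox15 stood at -0.44 ± 0.40, with a 95% interval from -1.22 to 0.34, and Ear1 at 0.37 ± 0.36, with an interval from -0.34 to 1.08. The moderated fold changes understate large ratios, so this sum is of moderated values and not of ratios.

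Other genes of the eosinophil programme were counted by list. Of the other Ear ribonucleases, all 4 with an adjusted p (Ear3, Ear6, Ear7 and Ear12) were higher in Double, and 0 of 4 were called in Npm1 in the authors' deposited tables. For comparison, 8.87% of all genes tested were higher in Double and 7.94% in Smc3. In Npm1 9.1% of them were higher and 9% lower. Ear3 and Ear12 held the same values in every table and count as 1 measurement, and the Smc3 table had an adjusted p for this 1 measurement alone, which was higher. As for Ear1 and Ear2, the split of reads among the Ear genes depends on the authors' read counting. The Ear genes may therefore share reads and are not shown to be separate measurements. Ear7 had 168, 211 and 1129.5 normalized reads in Smc3 libraries, 77.9, 11.5 and 323 in Npm1 libraries and 1095, 234 and 1197 in Double libraries, against 58.6, 52.4 and 116 in WT libraries, the same libraries being high as for Ear1. Ear10 had at most 6 reads in any library, and Ear4 and Ear14 were listed at 0.

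Receptors for eosinophil growth factors changed in Smc3 and Npm1. Of 5 with an adjusted p, 3 were higher in Smc3, and 2 lower and 1 higher in Npm1, while 0 were called in Double in the authors' deposited tables. Over all genes tested, 7.94% were higher in Smc3, and 9% were lower and 9.1% higher in Npm1. In Double 8.87% of them were higher and 9.82% lower. Csf2rb, the beta chain shared by the receptors for interleukin 3, interleukin 5 and GM-CSF, stood at 1.03 ± 0.14 in Smc3, -0.77 ± 0.19 in Npm1 and 0.34 ± 0.16 in Double (DESeq2 adjusted p = 0.117 in Double) in the authors' deposited tables. Csf2rb2, a mouse beta chain for interleukin 3, rose in Smc3 by 1.03 ± 0.20, and Il3ra by 0.50 ± 0.16, and Il3ra fell in Npm1 at -0.60 ± 0.21, in the authors' deposited tables. Il1rl1, the interleukin 33 receptor, was the 1 higher in Npm1, at 0.34 ± 0.13 in the authors' deposited table. Csf2rb was thus, like Alox15, called higher in Smc3 and lower in Npm1. Il5 itself had at most 8 reads in any library, and Il3 was listed at 0.

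Among surface receptors, 1 of 9 with an adjusted p was higher in Smc3 (Hrh4, a histamine receptor), where 7.94% of all genes tested were higher. In Npm1 2 of 8 were lower, where 9% of all genes tested were lower, and 0 of 8 were called in Double in the authors' deposited tables. Hrh4 had 68.0, 44.6 and 34.3 normalized reads in Smc3 libraries, 5.42, 3.13 and 10.6 in Npm1 libraries and 13.9, 9.37 and 11.5 in Double libraries, against 6.16, 10.5 and 4.14 in WT libraries. Smc3 libraries were all above WT, and the moderated log2 fold change in the authors' deposited table was 1.25 ± 0.25. Siglec5 and Emr4 fell in Npm1, at -0.86 ± 0.18 and -0.62 ± 0.23, and Cysltr1, a leukotriene receptor, stood at 0.52 ± 0.24 in Smc3 (DESeq2 adjusted p = 0.127) in the authors' deposited tables. The moderated log2 fold change of Siglec5 was 0.22 in Smc3 and -0.02 in Double, with neither called.

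Transcription factors of the lineage did not share 1 direction. Of 12 with an adjusted p, 3 were higher and 1 lower in Smc3, 2 lower in Npm1 and 2 lower in Double in the authors' deposited tables. Among all genes tested, 7.94% were higher and 6.6% lower in Smc3, 9% lower in Npm1 and 9.82% lower in Double. Cebpa, needed for granulocyte development, rose in Smc3 by 0.60 ± 0.13, as did Id2 by 0.71 ± 0.22, while Cebpb fell in Npm1 at -1.04 ± 0.21 in the authors' deposited tables. Zfpm1, the GATA cofactor also called FOG1, fell in Smc3 at -0.56 ± 0.17 and in Double at -0.81 ± 0.13, in the authors' deposited tables. Zfpm1 also acts in erythroid cells, and of 5 erythroid markers 5 were lower in Smc3, 2 in Npm1 and 5 in Double in the authors' deposited tables, whose part in the Zfpm1 result was not tested.

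Lipoxygenase and leukotriene enzymes were higher in 5 of 8 with an adjusted p in Smc3, in 1 of 7 in Npm1 and in 3 of 8 in Double in the authors' deposited tables. The share of all genes tested that were higher was 7.94% in Smc3, 9.1% in Npm1 and 8.87% in Double. Alox5, which starts leukotriene synthesis, rose in Smc3 by 0.83 ± 0.21, its partner Alox5ap by 0.69 ± 0.17 and Alox8 by 0.97 ± 0.25, and none of these 3 was called in Double in the authors' deposited tables. Alox12, a platelet lipoxygenase, ran another way: it rose in Npm1 by 1.01 ± 0.24 and in Double by 1.28 ± 0.24 in the authors' deposited tables.

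The 5 genes whose moderated fold changes over the 3 comparisons lay nearest the median of the 8 eosinophil genes, by Euclidean distance among 10690 genes, were Naaa, Btla, Mgam, Rnd3 and Syne2. Naaa, an acid amidase, stood at 0.81, 0.03 and 1.15 in Smc3, Npm1 and Double in the authors' deposited tables, at a distance of 0.061 from the median. Btla, an inhibitory receptor of lymphocytes, stood at 0.94, 0.06 and 1.05, and Syne2, the most distant of the 5, at 0.75, -0.07 and 0.95 in the authors' deposited tables.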

How the data were processed

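The libraries were prepared from poly(A) RNA of lineage-depleted cells, per the labels' protocols. The submitters' processing notes name STAR, DESeq2 and build mm9, with versions not given in the sources used here. Each of the 3 deposited tables holds 33018 transcripts. The mean signal is a mean of normalized counts over 6 libraries, per the file headers. The log2 fold changes and standard errors were moderated by the authors' fit, the score is their deposited Wald statistic, and the deposited p-values and adjusted p-values are theirs.

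Where a symbol had several transcripts, that of highest average mean was kept, and calls used an adjusted p under 0.05. Differences between genotypes were tested by a two-sided z test with summed variances, with Benjamini-Hochberg adjustment over all genes. Whole reads were recovered by enumeration, from means given to 12 significant digits. All 1500 low transcripts tried gave 1 set of reads, and 0 of 300 shifted means gave any. Refits by negative binomial ridge regression met the deposited standard error within 1e-05 in 118 of 120 checks. For Prg2 and Epx group means were solved from the deposited fit, which in 39 ratios of 13 other genes was within 0.046 on the log2 scale of the reads. The z test and the recovery of reads were also run on simulated data, with outcomes not reported here. The simulated fold changes were not moderated, unlike those used above. Python 3.11.15, numpy 2.4.6, pandas 2.3.3, scipy 1.17.1 and numba 0.67.0 were used.

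Named genes are the 8 members, up to 4 genes with the smallest p from each of 5 lists, the 5 genes nearest the members' median, and Smc3 and Npm1, and any other gene named was chosen after its values were seen. Members, lists and tests were chosen with earlier results of these data known. Other choices of transcript, threshold, centring and variance, and leaving out each library, were tried.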

Additional observations from a re-analysis of the deposited data

How the results depend on the processing

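The counts of eosinophil genes called in Smc3 (4), Npm1 (1) and Double (6) against WT changed by at most 1 under the other choices of transcript, adjustment, threshold, mean filter and centring: with a threshold of 0.01, 3 genes were called in Smc3. Among genes with reads and an adjusted p, leaving out each library left 2 to 3 of 3 calls in Smc3, 1 to 1 in Npm1 and 4 to 4 in Double, at the dispersion of the full fit. The Smc3 minus Npm1 count of 3 became 6 with 50% of the WT share of the variance removed, 5 at a threshold of 0.1, 8 with the whole share removed and 2 with genes that have a p in each table. A threshold of 0.01 left 0 of 6 calls in Double minus Npm1, 0 of 1 in Double minus Smc3 and 2 of 3 in Smc3 minus Npm1. For these differences this threshold and the removal of the whole share were chosen after seeing the data. The other alternatives gave 5 to 7 calls in Double minus Npm1 and 1 in Double minus Smc3, and each alternative gave 0 for Double minus the sum of both. Of 379 single-gene values without a library left out, 355 kept their side of the threshold, 14 gained a call, 9 lost one, and 1 uncalled value changed sign (Il5ra, Double minus Smc3, -0.01 when centred on the median gene). No paired analysis was possible because the deposited tables hold no values per numbered library, so recovered libraries cannot be tied to the replicate numbers of the labels. Depth limits Ccr3 most, with as few as 2 reads in a library.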

Other observations

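Alox12, which the report gives by its fold changes, was unlike Alox15 in its libraries. It had 47.4, 46.3 and 17.2 normalized reads in Smc3 libraries A, B and C, 52.2, 63.7 and 99.8 in Npm1 libraries and 75.6, 81.6 and 60.7 in Double libraries, against 22.6, 16.5 and 18.6 in WT libraries. All Npm1 and Double libraries lay above all WT libraries, and Smc3 library C lay within the range of WT.

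The ratio of Alox15 to Ear2 reads within a library, which no size factor touches, was 3.51, 1.5 and 0.278 in Smc3 libraries, 1.40, 3.8 and 0.421 in Npm1 libraries and 0.190, 0.340 and 0.217 in Double libraries, against 3.53, 4.39 and 1.14 in WT libraries. Double libraries all lay below all WT libraries in this ratio, and Smc3 library C stood with the Double libraries rather than with Smc3 libraries A and B. No test was made of this difference.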
